A study of Mus musculus with 27 samples.

Results

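The genes described here are 39 mouse genes that build or assemble the sarcomere, the contractile unit of striated muscle. They were chosen by name: each gene whose Ensembl identifier maps to 1 of 39 listed symbols was taken, and myosin heavy chains and troponins were not on that list. All 39 were present among the 20446 genes of the count table, and all passed the filter on low counts that left 12687 genes for testing. A sarcomere is a lattice in which thick filaments of myosin pull on thin filaments of actin. Thin filaments are anchored in the Z disc and carry tropomyosin, nebulin and pointed-end capping proteins. Thick filaments are cross-linked in the M band, titin spans from Z disc to M band, and desmin ties neighbouring myofibrils together. Dedicated chaperones and ubiquitin ligase adaptors fold myosin and control the supply of these proteins while myoblasts fuse into myotubes.

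The cells were C2C12, a line of mouse myoblasts that fuse into multinucleated myotubes when serum is withdrawn. They were expanded in 10% FBS, brought to differentiate in 2% horse serum, and exposed for 2 h to 50% horse serum. Such a pulse is used to align the circadian clocks of cultured cells. RNA was taken every 6 h at 12, 18, 24, 30, 36, 42, 48, 54 and 60 h after the pulse, with 3 libraries per time point and 27 in all. Every library came from pulsed cells of 1 line, with no unpulsed group, so a change over the hours may belong to the pulse or to the ongoing differentiation, and these cannot be told apart. Nothing in the labels says that the libraries of a time point are from different cultures, and p-values here measure only how far these libraries differ, which may be technical.

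Libraries held 15.2 to 26.6 M gene counts (median 20.9 M). The markers chosen for myotubes were all detected, with mean levels of 3048 CPM (counts per M counts of the scaled library) for Myh3, 1086 CPM for Tnnt3, 546 CPM for Myog, 253 CPM for Mymk, 237 CPM for Ckm and 102 CPM for Cav3. Myotube markers summed to 5133 ± 105.5 CPM at 60 h and 5279 ± 68.4 CPM at 12 h (SD, n = 3 each). Of the 6 tested, 1 (Myog) was lower and 0 were higher at 60 h, against 6.56% and 9.50% of all genes tested. Of 5 proliferation markers, 4 changed over the 9 time points, against 18.5% of all genes tested, and Mki67 averaged 209 CPM. Their sum was highest at 18 h (948 ± 147 CPM), with 687 ± 42.4 CPM at 12 h and 747 ± 22.3 CPM at 60 h. At 60 h 2 were higher and 1 lower than at 12 h, against 9.50% and 6.56% of all genes tested. Myoblast and reserve cell markers summed to 216 ± 1.51 CPM at 60 h and 190 ± 10.1 CPM at 12 h, with 1 of 5 tested higher and 0 lower at 60 h. Smooth muscle markers summed to 5466 ± 404 CPM at 60 h and 3529 ± 202 CPM at 12 h. Of the 5 tested, 4 (Acta2, Tagln, Cnn1 and Lmod1) were higher at 60 h, against 9.50% of all genes tested. Myh11, the myosin that defines that tissue, averaged 0.188 CPM. Fibroblast markers summed to 1338 ± 250 CPM at 60 h and 795 ± 141 CPM at 12 h (SD, n = 3 each). Of these, 3 of 3 tested were higher at 60 h, against 9.50% of all genes tested, and Thy1 was at 0 in all 27 libraries. The adipocyte marker Cidec was also at 0 in all 27 libraries. Of 3 neural markers, Snap25 was at 0 in all 27 libraries and Rbfox3 in 25, while Tubb3 averaged 163 CPM and was called for an upward trend (0.33 per 48 h on the log2 scale, adjusted p = 0.0184), and the list summed to 175 ± 16.9 CPM at 60 h and 141 ± 7.60 CPM at 12 h (SD, n = 3 each). In cultures of mixed cells, fewer cells of a type and less RNA per cell cannot be told apart, and the part of other cell types in the results below was not tested.

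The promoters of 6 of the genes are shown because they belong to 5 of the 8 members called between 60 and 12 h (Mybpc1, Xirp2, Mybpc2, Tpm1 and Mybph) and, for contrast, to the cardiac actin gene Actc1, which was not called. Each sequence is the 250 bases before the RefSeq start site on GRCm38.p6, read in the direction of the gene. Their positions were chr10:88605153-88605402 on the minus strand for Mybpc1, chr2:67445752-67446001 on the plus strand for Xirp2, chr7:44524670-44524919 on the minus strand for Mybpc2, chr9:67049214-67049463 on the minus strand for Tpm1, chr1:134193198-134193447 on the plus strand for Mybph, and chr2:114052876-114053125 on the minus strand for Actc1. Capitals mark matches on either strand to 5 motifs known from muscle promoters: the E-box CAGCTG, which MyoD family proteins bind, CATTCC, which TEAD proteins bind, TATAAA, the MEF2 site and the CArG box, which SRF binds.
Mybpc1: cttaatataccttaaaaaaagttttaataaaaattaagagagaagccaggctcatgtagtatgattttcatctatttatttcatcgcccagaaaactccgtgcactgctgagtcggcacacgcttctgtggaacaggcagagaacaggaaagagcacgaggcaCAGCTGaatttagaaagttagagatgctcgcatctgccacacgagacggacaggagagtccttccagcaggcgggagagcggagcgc
Xirp2: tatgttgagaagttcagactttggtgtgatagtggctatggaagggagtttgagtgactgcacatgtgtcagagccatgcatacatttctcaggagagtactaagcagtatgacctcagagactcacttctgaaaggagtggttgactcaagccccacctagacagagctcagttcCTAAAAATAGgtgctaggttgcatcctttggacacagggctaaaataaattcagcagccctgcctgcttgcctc
Mybpc2: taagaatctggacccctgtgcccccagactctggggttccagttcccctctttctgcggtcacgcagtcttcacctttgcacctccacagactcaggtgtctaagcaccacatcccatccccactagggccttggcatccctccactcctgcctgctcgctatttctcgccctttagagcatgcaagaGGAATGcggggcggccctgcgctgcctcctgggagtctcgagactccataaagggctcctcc
Tpm1: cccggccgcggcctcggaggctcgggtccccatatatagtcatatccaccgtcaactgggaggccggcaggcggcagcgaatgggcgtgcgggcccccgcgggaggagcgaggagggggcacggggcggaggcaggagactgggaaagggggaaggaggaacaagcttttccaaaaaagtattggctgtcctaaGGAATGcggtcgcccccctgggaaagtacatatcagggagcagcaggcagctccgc
Mybph: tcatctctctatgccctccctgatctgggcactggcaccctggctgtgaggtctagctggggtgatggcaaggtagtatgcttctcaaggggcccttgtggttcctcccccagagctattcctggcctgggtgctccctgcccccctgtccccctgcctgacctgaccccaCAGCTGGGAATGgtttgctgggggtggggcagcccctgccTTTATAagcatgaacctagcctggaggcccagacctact
Actc1: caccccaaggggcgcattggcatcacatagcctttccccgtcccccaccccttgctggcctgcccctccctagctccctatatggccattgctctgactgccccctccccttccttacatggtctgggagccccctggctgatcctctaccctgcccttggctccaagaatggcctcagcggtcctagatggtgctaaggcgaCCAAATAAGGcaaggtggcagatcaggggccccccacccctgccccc
The Mybpc1 promoter held the E-box, that of Xirp2 held a MEF2 site, those of Mybpc2 and Tpm1 each held CATTCC read on the other strand, and that of Actc1 held a CArG box. The Mybph promoter held the E-box next to CATTCC on the other strand, with no overlap, and TATAAA on the other strand. Of the 39 genes, 31 had an entry in the RefSeq promoter table, and the others were Neb, Myom2, Lmod3, Actn3, Tcap, Cryab, Myoz1 and Xirp1. The E-box was found in 12 of the 31 promoters (38.7%), against 12.8% of the 27025 promoters in the table cut to the same length. The CArG box was found in 5 (16.1%, against 1.40% of all), in Acta1, Actc1, Myl3, Ldb3 and Myom1. A MEF2 site was found in 4 (12.9%, against 0.518% of all), in Xirp2, Klhl41, Ttn and Myoz2. CATTCC was found in 8 (25.8%, against 12.6% of all) and TATAAA in 4 (12.9%, against 13.0% of all). None of the 35 matches in members overlapped another. These are matches of letters only, and the genes were listed for their role in muscle.

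Together the 39 genes held 28492 ± 1003 CPM (SD over 27 libraries, range 26788 to 31311), which was 2.68% to 3.15% of all counts. Their sum was 28319 ± 403 CPM at 60 h and 28791 ± 511 CPM at 12 h (SD, n = 3 each), a ratio of 0.984. Thin filament genes made up 38.3% of the sum, titin, Z disc and desmin genes 32.2%, thick filament genes 21.9%, M band genes 4.84% and assembly genes 2.79%. The thick filament sum had 5900 ± 397 CPM at 60 h against 6557 ± 452 CPM at 12 h (SD, n = 3 each). The thin filament sum was 11154 ± 314 CPM at 60 h against 10912 ± 358 CPM at 12 h.

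Levels spanned 4 orders of magnitude when divided by exon length. The highest were Mylpf, the fast regulatory myosin light chain, at 2806 CPM per kb, and Acta1, skeletal muscle actin, at 2704 CPM per kb, and their ranges over 27 libraries overlapped. Des, the intermediate filament desmin, followed at 842 CPM per kb and Tpm2, β-tropomyosin, at 716 CPM per kb, and these ranges overlapped too, but neither reached the range of Acta1. Next came Mybph at 479, the fast essential light chain Myl1 at 359, Tpm1 at 349, Actc1 at 305, the embryonic and atrial light chain Myl4 at 266 and the fast-fibre α-actinin Actn3 at 254 CPM per kb, each overlapping its neighbour in range. Titin (Ttn) had the most CPM per gene (4312) but, with 116825 bases of exons, stood at 36.9 CPM per kb. The lowest were Tmod4, a skeletal muscle tropomodulin, at 0.418 CPM per kb (7 to 29 counts per library) and Myl3, the ventricular and slow-fibre light chain, at 0.212 CPM per kb (4 to 18 counts per library). These 2 were the only members under 1 CPM, and 9 members exceeded 1000 CPM. How reads shared by near-identical actin or tropomyosin genes were counted is not given in the sources used here, so levels of these paralogs are uncertain to that extent. Exon length here is the merged length of all annotated exons of a gene, over all its transcripts. It was 4637 bases for Myl4, 2074 for Myl1, 6485 for Tpm1 and 2909 for Tpm2. In CPM without this division, Myl4 (1234) stood above Myl1 (744) and Tpm1 (2266) above Tpm2 (2083). The order and the ratios per kb thus depend on that length.

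**Figure D1:**
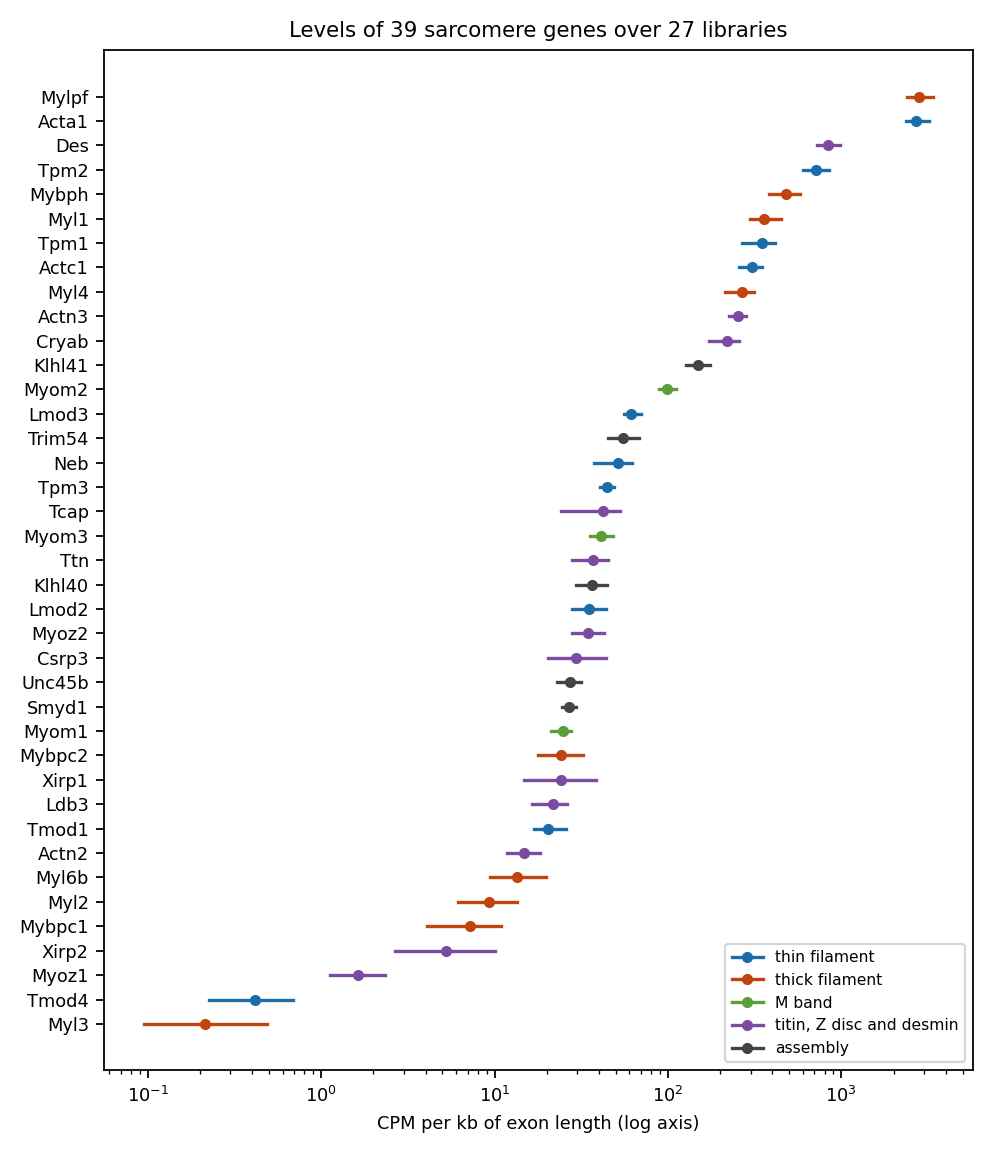
Mean level of each of the 39 sarcomere genes in CPM per kb of exon length on a log axis, with lines from the lowest to the highest of 27 libraries and colours for the role of the gene. Mylpf (2806 CPM per kb) and Acta1 (2704 CPM per kb) lead, and Tmod4 and Myl3 stand far below all others.

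Libraries numbered 2 stood apart from those numbered 1 and 3 in the levels of many members. Xirp1, an actin-binding protein of muscle attachment sites, was lower in number 2 than the mean of the other numbers by a log2 ratio of -0.69, averaged over time points, and was the lowest of the 3 libraries at 9 of 9 time points. Ldb3, a Z disc adaptor, Ttn and Des were likewise lowest in number 2 at all 9 time points, with mean log2 ratios of -0.41, -0.19 and -0.21. Conversely Myl2, the ventricular and slow-fibre regulatory light chain, was higher in number 2 by a mean log2 ratio of 0.38, Csrp3 by 0.31, Myl1 by 0.28, Myoz2 by 0.24 and Tpm1 by 0.16, and all 5 were highest in number 2 at 9 of 9 time points. In all, 11 members were above the mean of the other numbers at all 9 time points and 7 were below it. Over the 39 genes the log2 ratio of number 2 to the others had a Spearman's rho of -0.386 with exon length, as a description of genes that share these libraries. Since each time point has 1 library of each number, these offsets widened the spread within time points. The count of members called in each comparison is also given without the 9 libraries numbered 2. Those fits had fewer libraries per time point, and why a call was lost in them was not tested.

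**Figure D2:**
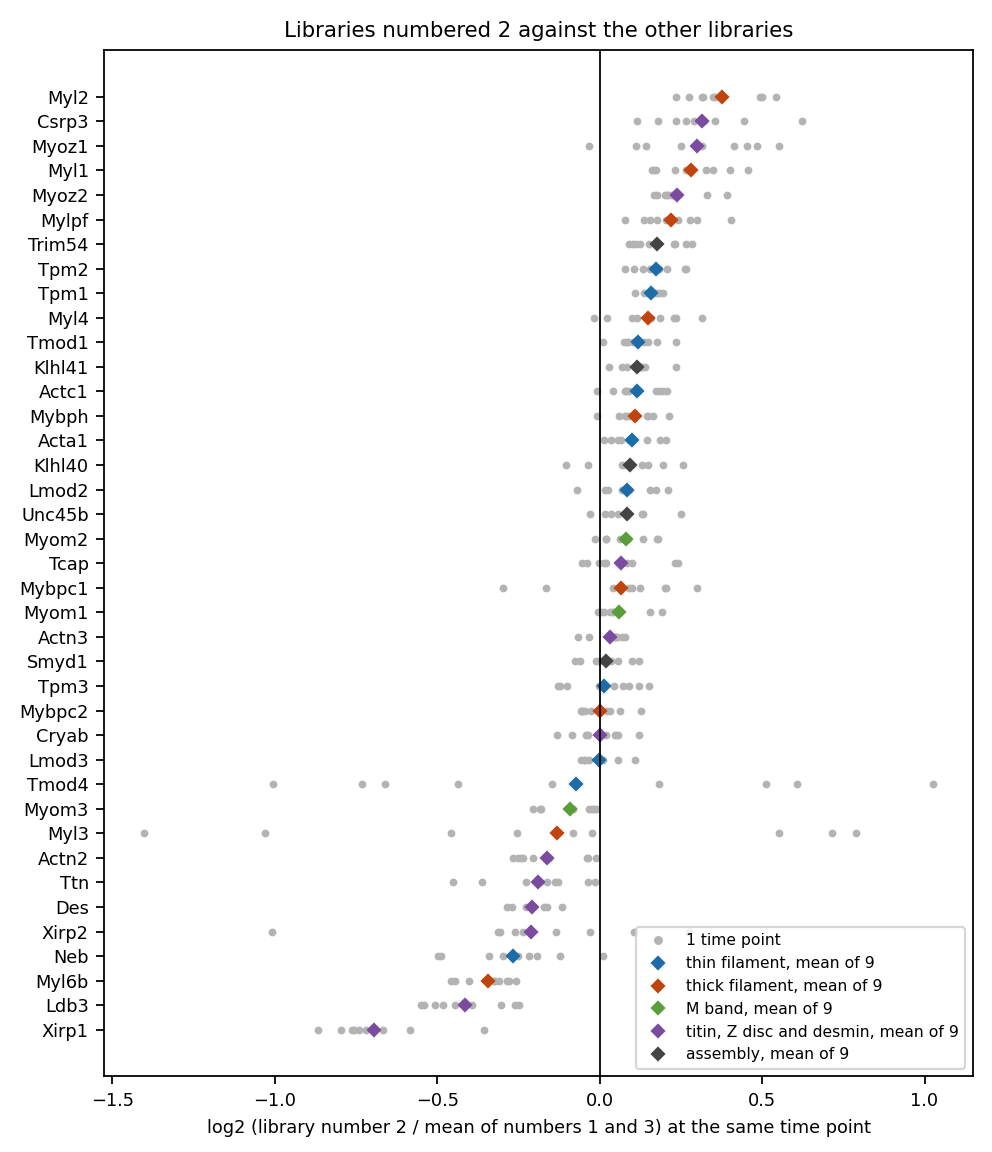
Log2 ratio of library number 2 to the mean of numbers 1 and 3 at the same time point (grey points, 1 per time point; coloured diamonds, mean of 9 time points) for each sarcomere gene. Xirp1, Ldb3, Des and Ttn lie below 0 at all 9 time points, and Myl2, Csrp3, Myl1, Myoz2 and Tpm1 above it at all 9.

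Change of any kind over the 9 time points was tested first. It was called at an adjusted p under 0.05 (edgeR quasi-likelihood F test of 8 contrasts, Benjamini-Hochberg over all genes tested) for 15 of the 39 genes, or 38.5%, against 18.5% of all genes tested. By role these were 4 of 10 thin filament genes, 3 of 9 thick filament genes, 2 of 3 M band genes, 4 of 12 titin, Z disc and desmin genes and 2 of 5 assembly genes. Without the libraries numbered 2 the count was 8, and without the 12 h libraries it was 6. With the replicate number as a block it was 23. The share over all genes was not kept for any alternative fit. Counts from those fits thus show how calls depend on the settings, and cannot be set against all genes. Changes were small: the highest time point mean was 1.5 times the lowest or more for 6 members, and the median ratio was 1.21. The 6 include Myl3 (1.66) and Tmod4 (1.65), which were under 1 CPM and not called. A linear trend, fitted with a 24 h wave and given per 48 h, was called for 14 members, 9 higher and 5 lower (19.4% of all genes tested, 10.7% higher and 8.72% lower), and for 12 without the libraries numbered 2. The median trend was 0.02 over the members and -0.01 over all genes tested on the log2 scale. In these fits, which had no block for the replicate number, no call was made by any of the tests for 21 members. Among them were Acta1, Actc1, Des, Ttn, Neb, Mylpf and Myl1. Below, called and not called refer to fits without the block unless the block is named.

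The comparison of 60 h with 12 h asks what had drifted after 48 h, at the same phase of a 24 h cycle. Of the 39 genes 8 were called, 6 higher and 2 lower, against 16.1% of all genes tested (9.50% higher and 6.56% lower), and the median log2 change was 0.02 over the members and -0.01 over all genes tested. The higher ones were Mybpc1, Xirp2, Tmod1, Tpm1, Mybpc2 and Myom1, and the lower ones Mybph and Actn3. All 3 libraries of 60 h lay above all 3 of 12 h for 10 members (16.7% of all genes tested) and below them for 7 (15.5% of all genes tested). Without the libraries numbered 2, 7 members were called. With the replicate number as a block 17 were, 10 higher and 7 lower, where the share over all genes was not kept. From 12 to 36 h, 5 members were called (4 higher and 1 lower at 36 h, against 16.0% of all genes tested, 9.30% higher and 6.75% lower), and 4 without the libraries numbered 2. Between 36 and 60 h, 4 members were called (3 higher and 1 lower at 60 h, against 0.859% of all genes tested, 0.497% higher and 0.363% lower), and without the libraries numbered 2 only Xirp2. The 36 against 12 h count was 3 without library 1 of 12 h or library 3 of 36 h, and the 60 against 36 h count was 2 without library 3 of 36 h or library 1 or 2 of 60 h. These contrasts share libraries of 12, 36 or 60 h and are not independent of each other.

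**Figure D3:**
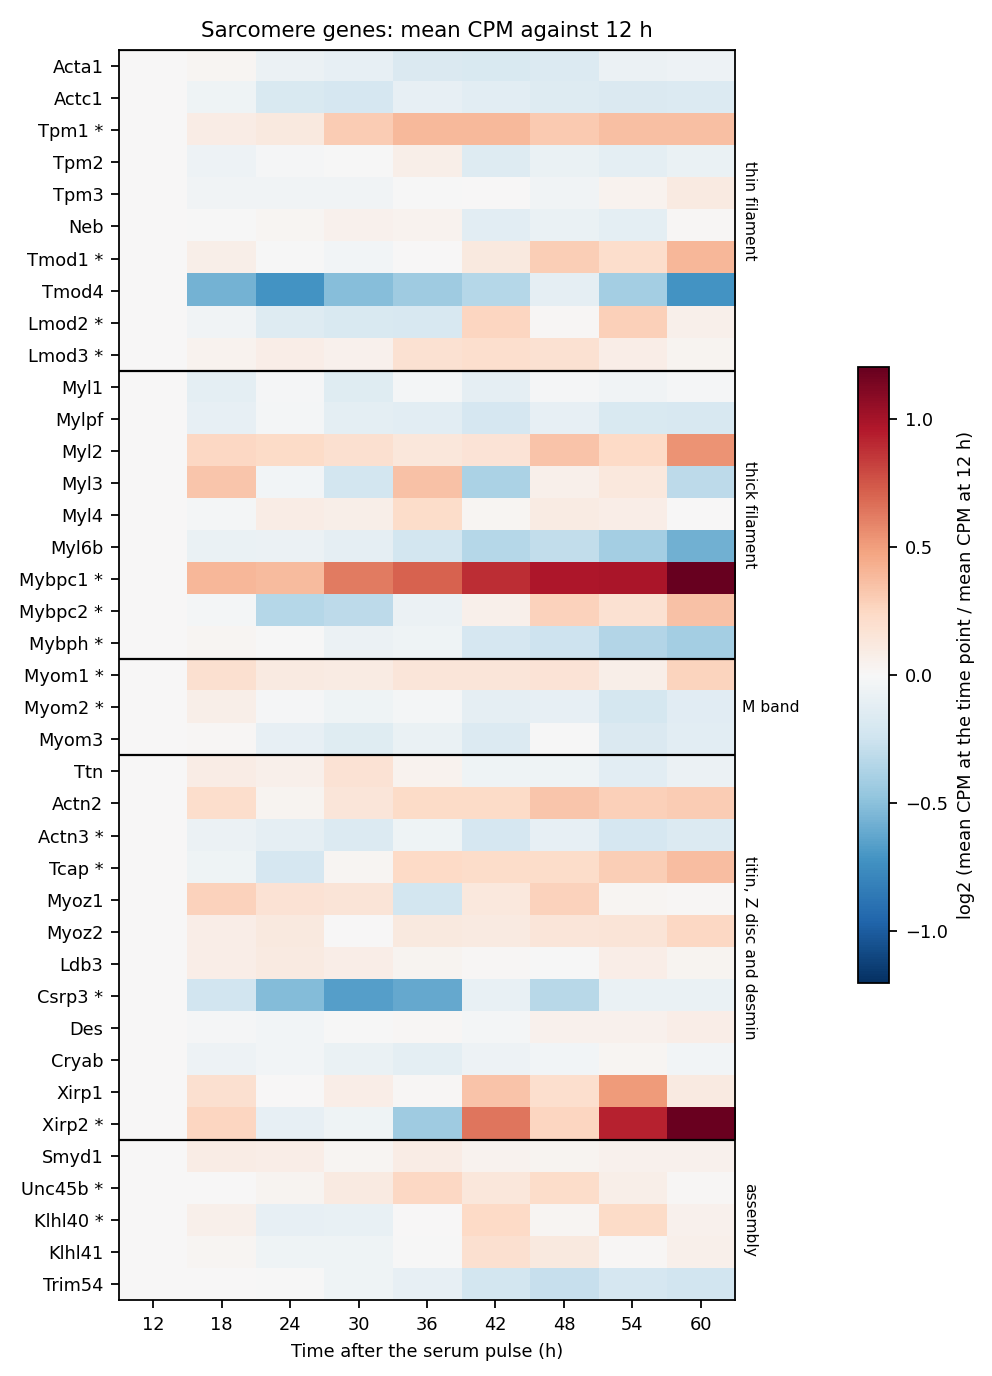
Log2 ratio of the mean CPM at each time point to the mean at 12 h for the 39 sarcomere genes, ordered by role, with red for higher and blue for lower and an asterisk at the 15 genes called for any change. Mybpc1 rises through the course, Xirp2 is highest at 60 h, and Csrp3 is lowest around 30 to 36 h.

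In the thin filament, 4 genes changed over the course and 2 differed between 60 h and 12 h. Tpm1, α-tropomyosin, which lies along actin and gates myosin binding, measured 2346, 2608 and 2334 CPM at 60 h, against 1883, 2036 and 1735 CPM at 12 h. It was higher at 60 h by 0.37 ± 0.09 on the log2 scale (SE, adjusted p = 0.00401), or 1.29-fold, and all 3 libraries of 60 h exceeded all 3 of 12 h. Most of this was in place at 36 h, where Tpm1 had 2292, 2674 and 2436 CPM and stood 0.39 ± 0.09 above 12 h (adjusted p = 0.00235). Tpm1 was no longer called for any change without the 12 h libraries (adjusted p = 0.0651; lowest 1.36e-07 and highest 0.0651 over 36 alternatives). Tmod1, tropomodulin, which caps the pointed ends of thin filaments, had 98.3, 102 and 91.3 CPM at 60 h, against 72.6, 82.0 and 66.8 CPM at 12 h. Its log2 change was 0.40 ± 0.09 between 60 and 12 h (adjusted p = 0.00248), with no overlap. Between 60 and 36 h it was 0.40 ± 0.09 (adjusted p = 0.0291). The call against 36 h was lost without library 1 or 3 of 36 h, library 1 or 2 of 60 h (adjusted p = 0.0668 to 0.163) or the libraries numbered 2 (0.146). Whether Tmod1 moved later than Tpm1 was not tested. The later and the earlier 24 h did not differ at the threshold for Tmod1 (edgeR, adjusted p = 0.159) or Tpm1 (0.112).

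The leiomodins, which nucleate actin and lengthen thin filaments, changed during the course without a called difference between its ends. Lmod2 had means of 68.9, 66.9, 61.9, 60.6, 60.4, 82.4, 69.4, 83.8 and 71.8 CPM from 12 to 60 h in steps of 6 h (any change, adjusted p = 0.000423). Its upward trend of 0.31 per 48 h (adjusted p = 0.0311) was lost without any of 8 single libraries (0.0501 to 0.0656) or without those numbered 2 (0.135). Its means were highest at 42 and 54 h, and at the ends it measured 68.4, 79.0 and 68.1 CPM at 60 h and 72.2, 74.5 and 59.9 CPM at 12 h, which overlapped. Lmod3 was highest in the middle of the course, with 149, 145 and 141 CPM at 36 h against 129, 125 and 127 CPM at 12 h (log2 change 0.19 ± 0.06, adjusted p = 0.0235). By 60 h its 123, 134 and 134 CPM again overlapped those of 12 h. The 36 h call for Lmod3 was lost without 5 single libraries (3 of 12 h, and numbers 1 and 2 of 36 h; adjusted p = 0.0548 to 0.101), and its call for any change without 19 single libraries (0.0528 to 0.0971). Without the libraries numbered 2 both were lost (adjusted p = 0.185 at 36 h and 0.525 for any change), and any change also without those of 12 h (0.138).

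The other thin filament genes were not called by any test in the fits without the block. Acta1 had 4197, 4329 and 4135 CPM at 60 h and 4429, 4615 and 4188 CPM at 12 h (log2 change -0.06 ± 0.08), and Actc1, the cardiac actin that is also made in developing skeletal muscle, 486, 500 and 460 CPM at 60 h and 544, 562 and 511 CPM at 12 h (-0.16 ± 0.08). Actc1 libraries of 60 h lay below those of 12 h, but the adjusted p was 0.212. Acta1 exceeded Actc1 per kb by 9.09, 9.12 and 9.48 times at 60 h and by 8.58, 8.66 and 8.63 times at 12 h. Tpm2 averaged 2083 CPM (-0.08 ± 0.11 at 60 against 12 h), Tpm3, the slow-fibre tropomyosin, 270 CPM (0.11 ± 0.07) and nebulin (Neb), which runs along the thin filament, 1362 CPM (0.01 ± 0.15). Per kb the ratio of Tpm1 to Tpm2 was 0.529, 0.529 and 0.547 at 60 h, against 0.387, 0.404 and 0.384 at 12 h, so the 3 ratios of 60 h all lay above those of 12 h. Tmod4 averaged 0.718 CPM, with a log2 change of -0.73 ± 0.35 at 60 against 12 h (adjusted p = 0.177).

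In the thick filament the myosin-binding proteins changed and most light chains did not pass the test. Mybpc1, the slow-type myosin-binding protein C, which decorates the thick filament next to the cross-bridges, had 45.4, 42.2 and 49.2 CPM at 60 h, against 18.6, 20.2 and 20.6 CPM at 12 h. Its log2 change of 1.20 ± 0.13 (2.30-fold, adjusted p = 4.19e-07) was the largest among the members at 60 against 12 h, with no overlap. Mybpc1 means were 19.8 CPM at 12 h, 25.7 CPM at 24 h, 32.3 CPM at 36 h, 38.9 CPM at 48 h and 45.6 CPM at 60 h, and the trend was 1.09 ± 0.10 per 48 h (adjusted p = 9.44e-09). All its calls held under every alternative run, without the 12 h libraries and without those numbered 2 included.

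Mybpc2, the fast-type myosin-binding protein C, had 105, 116 and 108 CPM at 60 h, against 90.6, 84.1 and 82.7 CPM at 12 h (log2 change 0.35 ± 0.06, adjusted p = 9.90e-05). Its course was not monotonic: the means were 85.8, 84.4, 67.8, 68.9, 81.6, 89.3, 104, 97.2 and 110 CPM from 12 to 60 h, lowest at 24 h. The mean had risen again to 81.6 CPM by 36 h, and the increase above 12 h lay after that. At 36 h Mybpc2 had 78.5, 80.6 and 85.8 CPM (60 against 36 h, 0.43 ± 0.06, adjusted p = 0.000236). That later call was lost without the libraries numbered 2 (adjusted p = 0.0765; 5.34e-10 to 0.0765 over 35 alternatives). The ratio of Mybpc2 to Mybpc1 per kb was 2.90, 3.46 and 2.75 at 60 h, against 6.12, 5.23 and 5.04 at 12 h, and these did not overlap.

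Mybph, myosin-binding protein H, a shorter relative of the same family, went the other way. It had 924, 959 and 892 CPM at 60 h, against 1219, 1262 and 1201 CPM at 12 h, lower by a log2 change of -0.41 ± 0.08 (adjusted p = 0.000568), with no overlap. It had 1097, 1227 and 1223 CPM at 36 h and was lower at 60 h than then (-0.35 ± 0.08, adjusted p = 0.027). The call against 36 h was lost without any of 5 single libraries (numbers 2 and 3 of 36 h and all 3 of 60 h; adjusted p = 0.0586 to 0.115) or those numbered 2 (0.136), while the call against 12 h held under every alternative run.

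Among the 6 light chains 1 was called, for the trend alone. Myl6b, an essential light chain of slow and non-muscle myosin, had 19.5, 17.4 and 22.0 CPM at 60 h, against 27.6, 23.6 and 36.4 CPM at 12 h. Its trend was -0.55 ± 0.15 per 48 h (adjusted p = 0.00828; 0.0575 without the 12 h libraries), and its 60 against 12 h change was -0.58 ± 0.22 (adjusted p = 0.0771). Myl2 had 20.3, 26.1 and 20.8 CPM at 60 h, against 16.4, 17.8 and 12.1 CPM at 12 h, with a log2 change of 0.54 ± 0.20 that missed the threshold (adjusted p = 0.0744). Mylpf averaged 2980 CPM (-0.19 ± 0.12 at 60 against 12 h), Myl4 1234 CPM (0.00 ± 0.11), Myl1 744 CPM (-0.02 ± 0.15) and Myl3 0.434 CPM (-0.31 ± 0.49). Per kb, Myl1 to Myl4 stood at 1.53, 1.49 and 1.31 at 60 h and at 1.51, 1.51 and 1.36 at 12 h, which overlapped.

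**Figure D4:**
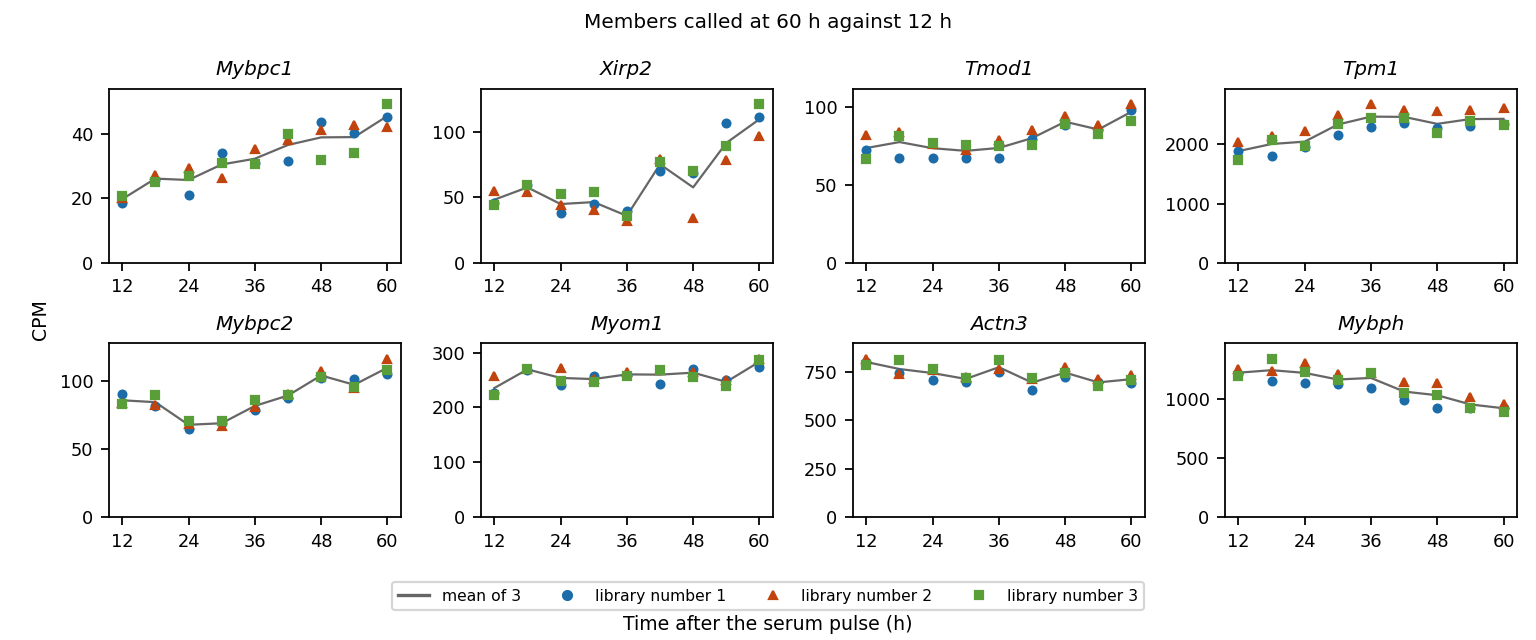
CPM of the 8 sarcomere genes called at 60 h against 12 h in each of 27 libraries (points by library number; line, mean of 3) against hours after the serum pulse, with each axis starting at 0. Mybpc1 means climb through the course and reach 45.6 CPM at 60 h, Tpm1 is already at 2467 CPM at 36 h, and Mybph declines to 925 CPM at 60 h.

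The M band genes Myom1 and Myom2, which encode myomesins that link neighbouring thick filaments, differed in direction between 60 and 12 h, where only Myom1 was called. Myom1 had 274, 289 and 287 CPM at 60 h, against 226, 257 and 223 CPM at 12 h (log2 change 0.27 ± 0.06, adjusted p = 0.00189), with no overlap. Its means lay between 247 and 269 CPM from 18 to 54 h, against 235 CPM at 12 h and 283 CPM at 60 h. Its trend of 0.15 ± 0.05 per 48 h (adjusted p = 0.0446) was lost without any of 18 single libraries (0.0502 to 0.155). It was also lost without those numbered 2 (0.0731) or those of 12 h (0.579). Myom2 had 817, 836 and 832 CPM at 60 h, against 884, 987 and 863 CPM at 12 h, and its trend was -0.20 ± 0.05 per 48 h (adjusted p = 0.0048), while the 60 against 12 h change of -0.14 ± 0.06 was not called (adjusted p = 0.162). Per kb the ratio of Myom1 to Myom2 was 0.284, 0.292 and 0.292 at 60 h, against 0.217, 0.220 and 0.218 at 12 h. These ratios varied little within a time point, with SDs of 0.00453 at 60 h and 0.00157 at 12 h. Myom3, the third myomesin, had 232, 230 and 257 CPM at 60 h and 246, 260 and 279 CPM at 12 h (-0.13 ± 0.09), and was not called. The calls of any change were near the threshold (adjusted p = 0.049 for Myom1 and 0.0496 for Myom2) and were lost without 23 and 9 single libraries (0.0508 to 0.134 and 0.0527 to 0.083), without those numbered 2 (0.0981 and 0.221) and without those of 12 h (0.191 and 0.0614), and the Myom2 trend was lost without the libraries numbered 2 (0.0619).

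Among titin, Z disc and desmin genes, Xirp2 changed most. Xirp2, a protein with Xin actin-binding repeats that sits at the Z disc and at muscle attachment sites, had 111, 96.8 and 121 CPM at 60 h, against 45.9, 54.5 and 44.0 CPM at 12 h. The log2 change was 1.19 ± 0.19 (2.28-fold, adjusted p = 5.95e-05), and the lowest library of 60 h was well above the highest of 12 h. It had 39.8, 32.1 and 35.7 CPM at 36 h, which was not called against 12 h (adjusted p = 0.141), and 60 h exceeded 36 h 3.05-fold (1.61 ± 0.19, adjusted p = 4.14e-05). Means were 48.1, 57.6, 44.8, 46.3, 35.9, 75.2, 57.5, 91.4 and 110 CPM from 12 to 60 h. At 48 h library number 2 had 34.4 CPM and the other libraries 68.4 and 69.9 CPM, and the calls for Xirp2 held without that library and without all those numbered 2. Its relative Xirp1 averaged 141 CPM and differed by 0.11 ± 0.31 between 60 and 12 h.

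Csrp3, muscle LIM protein, a Z disc partner of α-actinin and telethonin, dipped in the middle of the course. It had 65.3, 65.5 and 55.6 CPM at 36 h, against 95.8, 112 and 78.5 CPM at 12 h (log2 change -0.62 ± 0.17, adjusted p = 0.0146), with no overlap. At 60 h it was back at 89.8, 103 and 78.1 CPM (-0.08 ± 0.17 against 12 h), overlapping 12 h. The 36 h call was lost without library 2 of 12 h (adjusted p = 0.0856) or library 3 of 36 h (0.0684), and the call of any change (adjusted p = 0.021) without library 3 of 30 h (0.0523) or the 12 h libraries (0.0516).

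Tcap, telethonin, which joins the ends of titin in the Z disc, had 50.1, 46.4 and 45.2 CPM at 60 h, against 33.0, 40.8 and 35.9 CPM at 12 h. All 60 h libraries were above those of 12 h, the trend was 0.49 ± 0.10 per 48 h (adjusted p = 0.000606), and the 60 against 12 h change of 0.37 ± 0.13 was just short of the threshold (adjusted p = 0.0647). The call for any change of Tcap (adjusted p = 0.0305) was lost without library 1 of 60 h (0.0651), the libraries numbered 2 (0.194) or those of 12 h (0.0527). The 2 sarcomeric α-actinins, which cross-link thin filaments in the Z disc, differed in direction. Actn3 had 693, 734 and 709 CPM at 60 h, against 801, 817 and 783 CPM at 12 h (-0.17 ± 0.05, adjusted p = 0.0307), with no overlap. Actn2, the form present in all fibres and in heart, had 54.8, 59.4 and 67.0 CPM at 60 h, against 44.5, 48.6 and 53.4 CPM at 12 h, and its trend was 0.31 ± 0.08 per 48 h (adjusted p = 0.0102; 0.157 without the 12 h libraries). The 60 against 12 h call for Actn3 was lost without the libraries numbered 2 (0.143) or any of 4 single libraries (numbers 1 and 2 of 12 h, 1 and 3 of 60 h; 0.0597 to 0.0934). Its call for any change (adjusted p = 0.0389) was lost without library 1 or 2 of 12 h or 3 of 54 h (0.0513 to 0.0755), the libraries numbered 2 (0.232) or those of 12 h (0.249).

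The remaining genes of this role were not called by any test in the fits without the block. Ttn had 4330, 3822 and 4076 CPM at 60 h and 4370, 4209 and 4265 CPM at 12 h (-0.07 ± 0.12). Des averaged 3160 CPM (0.08 ± 0.13 at 60 against 12 h), Cryab, a small heat shock protein that protects desmin, 323 CPM (-0.04 ± 0.10), and Ldb3 132 CPM (0.04 ± 0.20). The calsarcins, which bind α-actinin and calcineurin, differed widely in level, with 119 CPM for Myoz2 (0.25 ± 0.12) and 3.07 CPM for Myoz1 (0.02 ± 0.20). Per kb, Myoz1 to Myoz2 was 0.0378, 0.0359 and 0.0468 at 60 h and 0.0468, 0.0464 and 0.0482 at 12 h.

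Of the assembly genes none differed between 60 and 12 h at the threshold, and none of the 5 reached an unadjusted p under 0.05 there. Over the course 2 were called for any change, Unc45b and Klhl40, and 1 for a trend, Trim54. Unc45b, the chaperone that folds myosin heads, had 136, 134 and 138 CPM at 36 h, against 114, 121 and 108 CPM at 12 h (log2 change 0.25 ± 0.07, adjusted p = 0.016), with no overlap, and was back at 112, 118 and 116 CPM at 60 h. Its 36 h call was lost without libraries 1 or 3 of 12 h or library 3 of 36 h (adjusted p = 0.0525 to 0.0809), and that of any change (adjusted p = 0.05 when rounded) without 22 single libraries (0.0517 to 0.104), those numbered 2 (0.0889) or those of 12 h (0.112). Klhl40, a ubiquitin ligase adaptor that stabilises nebulin and leiomodin, had 90.7, 96.0 and 88.9 CPM at 60 h and 88.8, 91.8 and 84.9 CPM at 12 h, which overlapped. Its highest means were 104 CPM at 42 h and 104 CPM at 54 h (any change, adjusted p = 0.027; 0.0515 to 0.0607 without library 1 or 2 of 42 h or library 2 of 54 h, 0.069 without those numbered 2 and 0.0512 without those of 12 h). Trim54, a muscle RING finger ubiquitin ligase that binds microtubules, had 70.8, 78.7 and 70.9 CPM at 60 h, against 83.0, 89.7 and 85.6 CPM at 12 h, with no overlap and a trend of -0.31 ± 0.08 per 48 h (adjusted p = 0.0081). Klhl41, a relative of Klhl40, had 363, 410 and 381 CPM at 60 h and 375, 411 and 323 CPM at 12 h (0.06 ± 0.09). Smyd1, a methyltransferase needed for myosin assembly, averaged 122 CPM and was among the steadiest, with a highest time point mean 1.06 times its lowest.

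**Figure D5:**
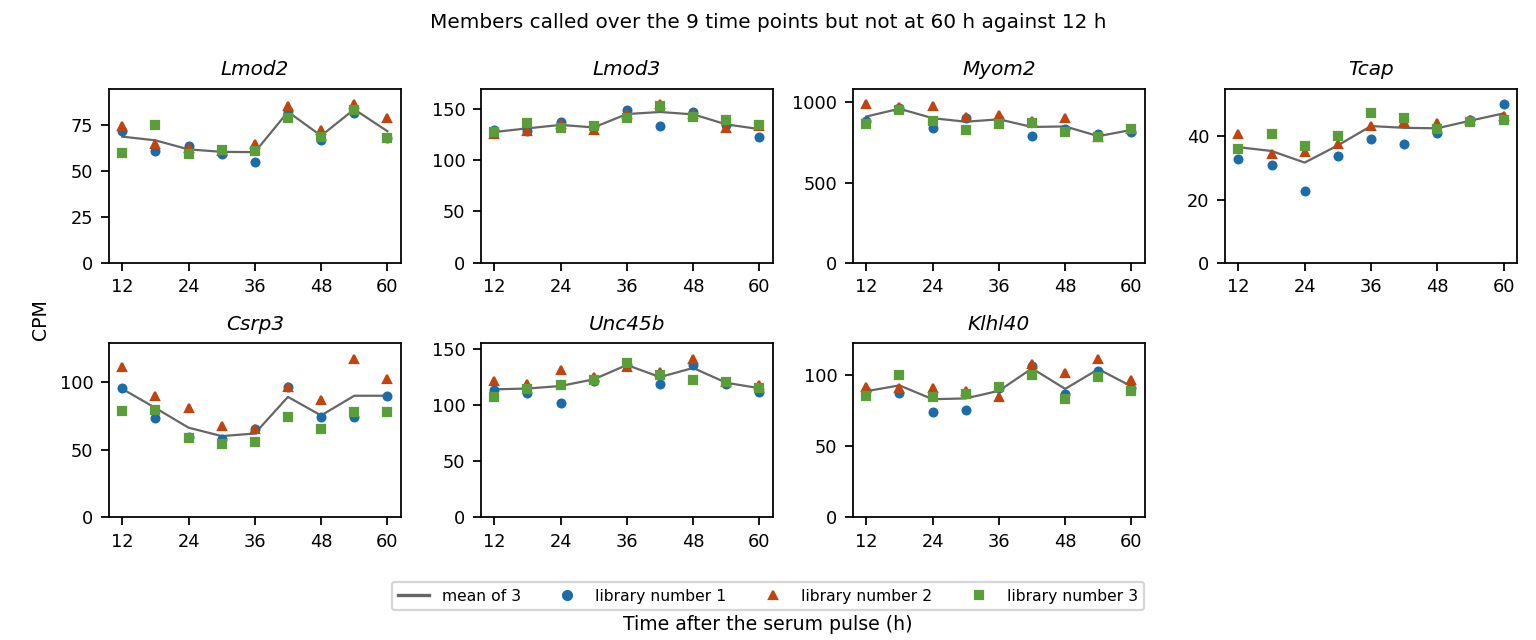
CPM of the 7 sarcomere genes called for any change over the 9 time points but not at 60 h against 12 h, in each of 27 libraries (points by library number; line, mean of 3) against hours after the serum pulse, with each axis starting at 0. Csrp3 is lowest at 30 and 36 h, Unc45b and Lmod3 are highest between 36 and 48 h, and Lmod2 and Klhl40 are highest at 42 and 54 h.

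The first and the second 24 h were also set against each other, a comparison chosen after the values were seen. The change from 36 to 60 h differed from that between 12 and 36 h for 5 members, 3 higher and 2 lower (edgeR, adjusted p under 0.05; 6.76% of all genes tested, 2.38% higher and 4.38% lower), for 3 without the libraries numbered 2, and for 3 or 2 without library 1 or 3 of 36 h. The difference was 2.03 ± 0.34 on the log2 scale for Xirp2 (adjusted p = 0.00032), 1.15 ± 0.30 for Csrp3 (0.0199), 0.50 ± 0.10 for Mybpc2 (0.00263), -0.34 ± 0.10 for Lmod3 (0.0317) and -0.49 ± 0.12 for Unc45b (0.0133). A positive value means that the change after 36 h was more upward than the one before it.

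Such a pulse is used to align circadian clocks, but whether the clocks of these cultures were aligned was not tested here. No member was called for a 24 h rhythm (edgeR, adjusted p under 0.05; 0.0552% of all genes tested, 7 genes). The lowest adjusted p was 0.957, for Mybpc2, the 1 member with an unadjusted p under 0.05 (0.0277). Without the libraries numbered 2 the count was also 0. DESeq2 and limma-voom called 0 as well, with 1 unadjusted p under 0.05 each. With the replicate number as a block 0 were called too, but 6 had an unadjusted p under 0.05. That number was 2 without the libraries numbered 2 and 3 without those of 12 h. It was 3 with a period of 28 h and 0 without the linear term. A 12 h alternation, a difference between every other collection time, was called for 0 members by edgeR, DESeq2 and limma-voom, and for 0 by edgeR without the libraries numbered 2 (0.772% of all genes tested, 0.229% higher and 0.544% lower at 12, 24, 36, 48 and 60 h). By edgeR 3 had an unadjusted p under 0.05, named after their values were seen: Klhl40 (-0.12 ± 0.05, adjusted p = 0.311), Lmod2 (-0.14 ± 0.06, adjusted p = 0.439) and Actn3 (0.07 ± 0.03, adjusted p = 0.327). A p that misses the threshold does not show that a gene is steady.

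Other genes of the same pathways were counted beside the members. Of 50 other sarcomere, Z disc and chaperone genes, 47 were tested and 15 were called for any change, against 18.5% of all genes tested. At 60 h 10 were higher and 4 lower than at 12 h, against 9.50% and 6.56% of all genes tested. The median log2 change was -0.00 over the list and -0.01 over all genes tested. The clearest of them were Kbtbd12, a kelch protein of the same family type as Klhl40 (log2 change 1.28 ± 0.14), the fast myosin heavy chains Myh4 (0.60 ± 0.08, adjusted p = 5.99e-06) and Myh1 (0.62 ± 0.07, adjusted p = 5.18e-07), which were higher at 60 h, and Nrap, a scaffold of myofibril assembly, which changed over the course (adjusted p = 3.82e-05) but not between its ends (0.11 ± 0.09). Of 13 non-muscle paralogs of the members, 6 were higher and 0 lower at 60 h than at 12 h (median 0.20), beside the same shares of all genes tested. They included Myl9, a smooth and non-muscle light chain (1.14 ± 0.12), Actb, cytoplasmic β-actin (0.46 ± 0.06), Tpm4 (0.50 ± 0.10) and Tmod3 (0.20 ± 0.06). Summed, the non-muscle paralogs held 15076 ± 578 CPM at 60 h and 12140 ± 369 CPM at 12 h (SD, n = 3 each), beside the 28319 and 28791 CPM of the members. Of 18 muscle transcription factors and co-activators, 5 were higher and 2 lower at 60 h, against 9.50% and 6.56% of all genes tested. Myog, myogenin, which drives the muscle programme, had 420 ± 30.1 CPM at 60 h and 744 ± 11.4 CPM at 12 h (-0.82 ± 0.07, adjusted p = 2.61e-08). Mef2c, a partner of myogenin, had 488 ± 6.43 CPM at 60 h and 341 ± 2.63 CPM at 12 h (0.52 ± 0.07, adjusted p = 5.78e-06). Id3, an inhibitor of MyoD family proteins, was higher at 60 h (0.86 ± 0.10) and so was Myf6, a MyoD family member of differentiated muscle (0.99 ± 0.25).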

How the data were processed

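The deposited values are unnormalized counts, in whole reads for each gene in each library. Trim Galore 0.4.0, cutadapt 1.9.1, featureCounts and the build mm10 are named in the submitters' processing notes. Per the labels' protocols, RNA was total RNA freed of ribosomal RNA in a stranded kit. Neither the aligner nor the annotation release nor the counting options are stated there. GENCODE M21 on mm10 gave symbols, positions and exon lengths for 20327 of 20446 genes, the other 119 having no match, and promoters came from RefSeq on GRCm38.p6.

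Libraries were grouped by the time in their labels. Genes were kept by filterByExpr with a minimum count of 10 and scaled by TMM, and CPM are counts per M of the scaled library size. Tests were edgeR 4.0.16 quasi-likelihood F tests in R 4.3.3 on all 27 libraries, with p-values adjusted by Benjamini-Hochberg over 12687 genes and calls at an adjusted p under 0.05. Every adjusted p in the text comes from edgeR unless DESeq2 or limma is named, except that ranges over alternatives also take in the DESeq2 and limma-voom fits. Any change and the contrasts used the time point as a factor, with no block for the replicate number. The trend, the 24 h wave and the alternation used time in hours with a cosine and sine. An SE is the log2 change divided by the root of F. Sums, ratios and levels were not tested. The script was tested on simulated counts.

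The members and all lists were chosen with earlier results of these data known. Full values are given within each role for up to 4 members with the smallest p for any change and for isoform pairs, and of each other list up to 4 genes with the smallest p are named. The 3 genes named for alternation, the genes named for library number and the 6 promoters shown were chosen after their values were seen. Alternatives were DESeq2 1.42.0, limma-voom (limma 3.58.1), median of ratios scaling, no filter or a filter at a mean of 1 CPM, blocking on the replicate number, leaving out each library, fits without the libraries numbered 2 or those of 12 h, an adjusted p under 0.01, periods of 20 and 28 h, and other trend models. The comparison of the first with the second 24 h was chosen after seeing the data.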

Additional observations from a re-analysis of the deposited data

Results flagged for a closer look

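Chosen after the values were seen, a direct test compared the later with the earlier 24 h of the sampled course. For 5 members the change between 36 and 60 h differed from the change between 12 and 36 h (edgeR quasi-likelihood F test, Benjamini-Hochberg over all genes tested), which uses the 36 h libraries in both changes. For Xirp2 the difference was 2.03 on the log2 scale (adjusted p = 0.00032), with a change of 1.61 ± 0.19 after 36 h and -0.42 ± 0.19 before it. Its adjusted p was at most 0.00558 over 35 alternatives. For Mybpc2 it was 0.50 (adjusted p = 0.00263), with 0.43 ± 0.06 after 36 h and -0.07 ± 0.06 before it, and without the libraries numbered 2 the adjusted p was 0.0823. For Csrp3 it was 1.15 (adjusted p = 0.0199), with 0.54 ± 0.17 after 36 h and -0.62 ± 0.17 before it, and without library 3 of 36 h the adjusted p was 0.126.

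The opposite sign was found for the other two. For Unc45b the difference was -0.49 (adjusted p = 0.0133), with -0.24 ± 0.07 after 36 h and 0.25 ± 0.07 before it, and without library 1 or 3 of 36 h the adjusted p was 0.054 or 0.0652. For Lmod3 it was -0.34 (adjusted p = 0.0317; 0.211 without the libraries numbered 2), with -0.15 ± 0.06 after 36 h and 0.19 ± 0.06 before it, and it was lost without any of 7 single libraries (all of 12 h, all of 36 h and number 1 of 60 h, adjusted p = 0.0509 to 0.164).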

How the results depend on the processing

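The count of members called for a linear trend (14 of 39) was 10 to 21 over all alternatives, and 0 members were called for a 24 h rhythm under any of those run, including periods of 20 and 28 h. With the replicate number as a block (replicate block) the counts were 23 for any change, 17 for 60 against 12 h, 11 for 36 against 12 h, 7 for 60 against 36 h, 21 for the trend, 1 for alternation (Xirp1) and 10 for the difference between the first and second 24 h. The numbers were not taken to pair libraries, as the labels do not say what they mark. Over 108 pairs with the same number the correlation of deviations from time point means over genes ran from -0.0558 to 0.692. Its median was 0.331, and 91 were over 0.1. Over 216 pairs with different numbers the median was -0.190, and 37 were over 0.1. Of 27 libraries, 26 were most like their own number, a difference that the main p-values do not take into account. Without the libraries numbered 2 the counts were 8 for any change, 1 for 60 against 36 h and 3 for the difference between the days. Without the 12 h libraries they were 6 for any change and 1 for alternation (Lmod2). Without a filter 9 members were called for any change, where more genes were tested, and the alternation was not run. At an adjusted p under 0.01 the counts were 7 for any change, 2 for 36 against 12 h, 2 for 60 against 36 h and 2 for the difference between the days.

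Leaving out single libraries gave 10 to 14 for any change, 7 to 9 for 60 against 12 h, 3 to 6 for 36 against 12 h, 2 to 5 for 60 against 36 h, 12 to 15 for the trend, 2 to 6 for the difference between the days and 0 for rhythm and alternation. The count of 3 for 36 against 12 h came without library 1 of 12 h or library 3 of 36 h, and that of 2 for 60 against 36 h without library 3 of 36 h or library 1 or 2 of 60 h. That of 3 or 2 for the days came without library 1 or 3 of 36 h. Scaled to raw library totals, the summed level of the members at 60 h was 0.948 of that at 12 h, against 0.984 with TMM and 0.986 with median of ratios. No member's direction reversed in a called result. The cause of these shifts was not tested, and the share of all genes called was not kept for any alternative. Depth limits Tmod4 and Myl3, with 4 to 29 counts per library.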
